A study of Mus musculus with 35 samples.

Results

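The high mobility group genes Hmgb1, Hmgb2, Hmgb3, Hmgn1, Hmgn2, Hmgn3, Hmgn5 and Hmga1 were followed through the RNA and ribosome footprint counts of mouse leukemia cells. These 8 genes are named members of a list, of 55487 genes in the count files. They were chosen by family name with RNA and footprint results of these same libraries in view; which of those values prompted the choice was not recorded. All values and tests of the members are therefore read as a description, and no count over the list is independent support for a change.

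The cells were MLL-AF9 acute myeloid leukemia cells, which carry a fusion oncogene and GFP. A guide RNA in the cells was either sgScramble, the control, or sgOgfod1, which targets the gene of a prolyl hydroxylase that acts on a ribosomal protein. All cells came from the leukemia of 1 terminally ill mouse and were expanded in culture with SCF, IL-3 and IL-6 before transfer into male recipients aged 8 to 10 weeks. The vehicle groups received a standard amino acid diet and PBS. The treated groups received a diet free of branched chain amino acids together with cytarabine at 100 mg/kg daily for 5 days and doxorubicin at 3 mg/kg daily for the first 3 days, so diet and chemotherapy cannot be told apart. GFP+ cells were sorted from bone marrow. Each of 23 mice gave 1 RNA library, with 5 sgScramble and 5 sgOgfod1 mice under vehicle and 7 sgScramble and 6 sgOgfod1 mice under treatment. Footprint libraries came from 12 of these mice, 3 and 3 under vehicle and 4 and 2 under treatment. Total counts per library ranged from 31921768 to 142694163 for RNA and from 5705585 to 14642692 for footprints.

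High mobility group proteins are abundant chromatin proteins that are not histones. Hmgb proteins bend DNA through a pair of HMG boxes and end in an acidic tail, and Hmgb1 released from a cell acts as an inflammatory signal. Hmgn proteins bind the nucleosome and compete with linker histone H1, and Hmga1 binds the minor groove of AT-rich DNA. Several have given rise to many processed pseudogenes, which are copies of the spliced RNA in the genome. A ribosome footprint covers only a short stretch of coding sequence, so a footprint may match the gene and its copies equally well.

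That overlap was measured first, because each footprint value below depends on it. The coding sequence of each gene was divided into every window of 30 bases and searched in all annotated GENCODE M21 transcripts. In Hmgb1, only 9 of 619 windows (1.45%) were found in no other annotated gene, and a window was found in a median of 34 others. All 9 lay at the start of the coding sequence, within bases 1 to 38 (capitals mark bases of windows that no other annotated transcript held, 5′ to 3′).
Hmgb1, bases 1 to 38: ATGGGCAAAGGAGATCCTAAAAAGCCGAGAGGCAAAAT
Hmgb2, bases 577 to 633: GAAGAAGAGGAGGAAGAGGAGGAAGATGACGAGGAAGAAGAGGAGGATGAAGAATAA
In Hmgb2 the stretch at the end of the coding sequence held all 28 unique windows of 604 (4.64%).

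The nearest copies differed from the gene at single bases. The Hmgb1 pseudogenes Gm21596 and Gm15387 each had 1 mismatch over the 648 coding bases, A21G, counted from the first coding base with the base of Hmgb1 first. The capital marks that base in the aligned stretches.
Hmgb1: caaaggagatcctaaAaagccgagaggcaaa
Gm21596: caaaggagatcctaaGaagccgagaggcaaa
Gm15387: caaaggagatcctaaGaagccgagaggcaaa
The Hmgb2 pseudogene Gm4739 had 2 mismatches over 633 bases, C555T and C606A.
Hmgb2: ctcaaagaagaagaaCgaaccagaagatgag
Gm4739: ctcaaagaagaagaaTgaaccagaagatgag

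The remaining genes ranged from no unique window to nearly all. Hmgb3 (0 of 574 windows), Hmgn2 (0 of 244) and Hmga1 (0 of 295) had none. Every Hmga1 window lay in Hmga1b, an annotated protein-coding copy with the same coding sequence. Hmgn1 had 72 of 262 unique windows (27.5%), Hmgn5 734 of 1192 (61.6%) and Hmgn3 268 of 271 (98.9%). The following windows, shown as examples of shared coding sequence, stood unchanged in 36 other genes for Hmgb1, 9 for Hmgb2 and 16 for Hmgn2, where the most shared window of Hmgb1 stood in 76.
Hmgb1, bases 400 to 429: aacaacactgcagcagatgacaagcagccc
Hmgb2, bases 209 to 238: gttatgacagggagatgaagaactatgttc
Hmgn2, bases 82 to 111: ttgtctgctaaacctgctcctccaaagcca

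Annotated pseudogenes with at least 85% identity over at least 100 coding bases numbered 139 for Hmgb1, 26 for Hmgn2, 17 for Hmgb3, 12 for Hmgb2, 8 for Hmgn1 and 3 for Hmgn5. Hmgn3 and Hmga1 had none. Of all counts listed under Hmgb1 or one of its pseudogenes, pseudogenes held 91.8% ± 0.25 (SD, n = 12) in footprints but 5.11% ± 0.64 (SD, n = 23) in RNA. For Hmgn2 the footprint share was 88.6% ± 0.40, for Hmgb2 81.1% ± 0.48, for Hmgb3 77.0% ± 0.56, for Hmgn1 68.0% ± 2.29 and for Hmgn5 23.9% ± 1.69 (SD, n = 12 each). In RNA the mean shares of these 5 genes were between 0.18% and 3.11%. Hmga1b held 47.9% ± 0.46 of the footprint counts of the Hmga1 pair and 2.72% ± 0.35 of its RNA counts. These are shares of counts, not of molecules: how the authors counted a read with several equal matches is not given in the sources used here, and a read counted under each match would be counted more than once.

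**Figure D1:**
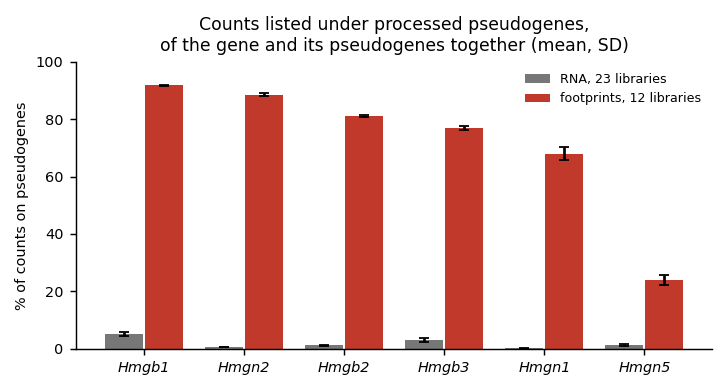
Bars give the percent of counts listed under annotated pseudogenes, out of those of the gene and its pseudogenes together, as mean and SD over libraries (grey, RNA; red, footprints). In RNA the mean share was at most 5.11%, while in footprints the mean ran from 23.9% for Hmgn5 to 91.8% for Hmgb1.

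The copies with the most footprints had levels near that of the gene for Hmgb1, Hmgb2 and Hmgn2. Levels are given as CPM, the count of a gene scaled to the same library size in every sample, with library sizes adjusted by TMM, a factor that assumes no change for most genes. Hmgb1 had a mean of 161.0 footprint CPM over 12 libraries, and its copies Gm21596, Gm15387 and Gm8319 had 156, 154 and 142 CPM. Their mean RNA levels were 0.43, 0.04 and 0.21 CPM, against 371 CPM for Hmgb1. Hmgb2 had 833 footprint CPM and its copies Gm4739, Gm13237 and Gm13232 had 713, 625.4 and 587 CPM. Hmgn2 had 189.8 CPM, its protein-coding copy Gm10282 had 189.9 CPM, and its pseudogenes Gm10182, Hmgn2-ps1 and Gm6750 had 176, 169.8 and 160.0 CPM. Across pseudogenes, the footprint level rose with the number of windows shared with the gene, with a Spearman rho of 0.96 over 26 pseudogenes of Hmgn2, 1.00 over 12 of Hmgb2 and 0.51 over 139 of Hmgb1. Those points share their libraries and can share reads, so the correlations only describe the overlap.

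**Figure D2:**
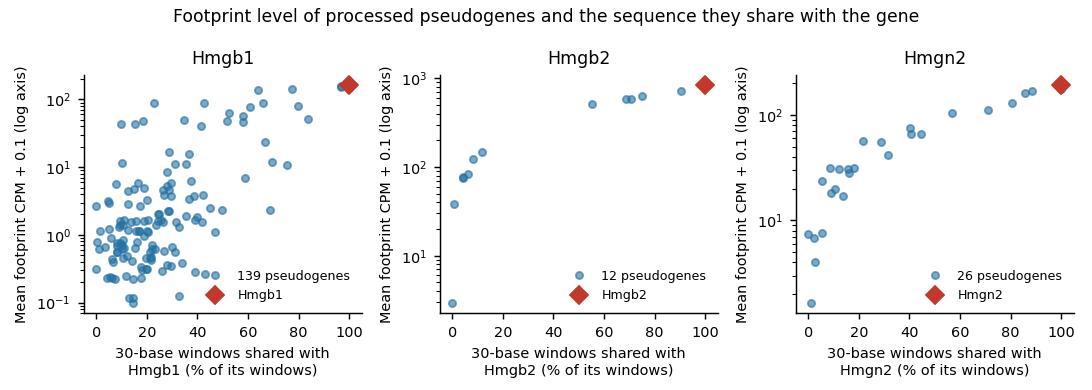
Each blue point is 1 pseudogene, placed by the percent of the gene's windows of 30 bases that it shares (x axis) and its mean footprint CPM plus 0.1 on a log axis (y axis); the red diamond is the gene itself. Copies that share most windows reach the level of the gene, but the 18 Hmgb1 copies with 300 or more shared windows span 2.25 to 156 CPM.

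The members were then ordered by level per length. Hmgb2 and Hmgn2 led in both assays, and Hmgn1 was the lowest of the 7 expressed genes. RNA was divided by kilobases of exon and footprints by kilobases of coding sequence. On the RNA scale Hmgb2 had 204 ± 24.5 CPM per kb, Hmgn2 165 ± 36.6, Hmgb1 73.9 ± 10.3, Hmga1 33.8 ± 5.70, Hmgn5 29.1 ± 6.98, Hmgb3 23.7 ± 6.18 and Hmgn1 13.4 ± 2.32 (SD, n = 23). Ranges of Hmgb2 and Hmgn2 overlapped, as did those of Hmga1 and Hmgn5, of Hmgn5 and Hmgb3, and of Hmgb3 and Hmgn1. Hmgn2 lay above Hmgb1, and Hmgb1 above Hmga1, in 23 of 23 libraries with no overlap of ranges.

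On the footprint scale Hmgb2 had 1316 ± 93.3 CPM per kb, Hmgn2 695 ± 95.2, Hmgb1 248 ± 78.1, Hmga1 213 ± 25.3, Hmgn5 79.5 ± 19.1, Hmgb3 68.5 ± 12.0 and Hmgn1 20.4 ± 5.15 (SD, n = 12). Hmgb1 was above Hmga1 in 8 of 12 libraries and their ranges overlapped, as did those of Hmgn5 and Hmgb3. Hmgb1 had the widest relative spread of the 7 over footprint libraries, from 130.2 to 371 CPM per kb. These levels leave out the counts listed under copies, which were larger than those of the gene itself for Hmgb1, Hmgb2, Hmgb3, Hmgn1 and Hmgn2.

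**Figure D3:**
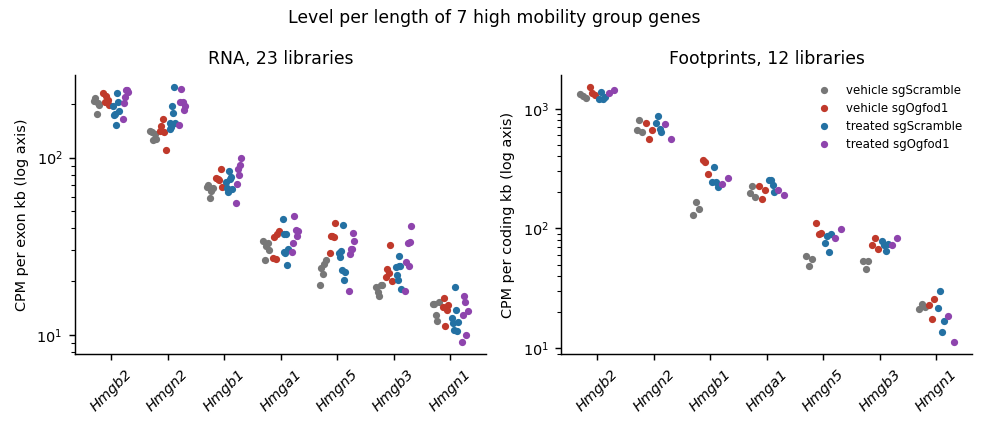
Points are libraries, coloured by group, with RNA as CPM per kilobase of exon (left) and footprints as CPM per kilobase of coding sequence (right), both on log axes; genes run from highest to lowest mean. The order was the same in both assays, and the Hmgb1 footprints of the 3 vehicle sgScramble mice lie apart from the other 9.

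Hmgn3 was close to absent. Its RNA level was at most 0.68 CPM in 23 libraries, and its footprints were 0 in 10 of 12 libraries with 1 count in each of the other two. It did not pass the filter on low counts in either assay and was not tested, so 7 of the 8 genes entered each comparison.

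The ratio of footprint CPM to RNA CPM in the same mouse placed the genes in another order. Its log2 was 0.64 ± 0.21 for Hmgn5, 0.43 ± 0.15 for Hmgb2, -0.08 ± 0.26 for Hmga1, -0.30 ± 0.14 for Hmgb3, -1.25 ± 0.44 for Hmgb1, -1.28 ± 0.33 for Hmgn2 and -2.86 ± 0.36 for Hmgn1 (SD, n = 12 mice). Over 10206 protein-coding genes with at least 1 CPM in both assays the median was -1.65. Counts on copies were not added, so for the genes with many copies this ratio is not their footprint output per RNA.

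Both treatment comparisons, both genotype comparisons and their interaction were tested in each assay with edgeR's quasi-likelihood test and Benjamini-Hochberg adjustment over all genes, and an adjusted p under 0.05 is named a call. In footprints, sgOgfod1 against sgScramble under vehicle and treatment against vehicle in sgScramble each called the same 3 members, Hmgb1, Hmgb3 and Hmgn5, all higher. These comparisons share the 3 vehicle sgScramble mice as their reference. Hmgb2, Hmgn1, Hmgn2 and Hmga1 were not called in footprints in any comparison. Over all 18290 genes tested in footprints, 0.908% were called higher for the genotype under vehicle (1.81% in either direction) and 8.12% for treatment in sgScramble (15.6% in either direction), so 3 of 7 was above the background in both, for a list that was not chosen independently.

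Hmgb1 lies on chromosome 5 (chr5:149046702-149184489, minus strand, GRCm38). Its footprint level was 84.4, 107 and 93.9 CPM in the vehicle sgScramble mice and 241, 232 and 184 CPM in the vehicle sgOgfod1 mice. In the treated sgScramble mice it was 158, 210, 158 and 143 CPM, and in the treated sgOgfod1 mice 151 and 170 CPM. The 3 vehicle sgScramble values were below all 9 others. The same held for Hmgb3 and Hmgn5 below, and all 3 genes had been called higher against these same mice. Their separation is therefore in part a result of that selection, and the share of all genes that separate this way is not given here.

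The Hmgb1 footprint level was 2.30-fold higher with sgOgfod1 than with sgScramble under vehicle (log2 difference 1.20 ± 0.15 SE, n = 3 and 3, edgeR adjusted p = 0.00051). With treatment it was 1.76-fold higher in sgScramble mice (0.81 ± 0.14, n = 4 and 3, edgeR adjusted p = 0.0013). Groups did not overlap in either comparison, and the calls held in each of 6 and 7 fits that left out 1 library. In sgOgfod1 mice treatment gave a log2 difference of -0.45 ± 0.16 (n = 2 and 3, edgeR adjusted p = 0.10), and the genotype difference under treatment was -0.06 ± 0.15 (n = 2 and 4, edgeR adjusted p = 0.89).

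The treatment effect on Hmgb1 footprints differed between the genotypes by -1.26 ± 0.21 on the log2 scale (edgeR interaction term, adjusted p = 0.033). Of all genes, 12 were called for that interaction (0.0656%), 11 of them lower (0.0601%). They were Hmgb1, 9 of its pseudogenes, Ahnak, which encodes a large scaffold protein, and Tgm1, a transglutaminase. Hmgb1 and its pseudogenes share sequence, so those 10 are not separate observations. The interaction was no longer called when pseudogene counts were added to those of Hmgb1 (-1.22 ± 0.20, edgeR adjusted p = 0.084) or with the replicate number as a block (-1.21 ± 0.23, edgeR adjusted p = 0.066). Leaving out any of 6 libraries also ended the call, with values from -1.29 to -1.17 and edgeR adjusted p from 0.066 to 0.16. These were vehicle sgScramble 2 and 5, vehicle sgOgfod1 3, treated sgScramble 1 and 3, and treated sgOgfod1 4.

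For Hmgn5 and Hmgb3 the interaction was -0.65 ± 0.20 and -0.43 ± 0.17, neither called (edgeR adjusted p = 0.33 and 0.47).

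The pseudogenes of Hmgb1 moved with the gene. Hmgb1 and its pseudogenes together held 1150 ± 111 footprint CPM in vehicle sgScramble, 2587 ± 341 in vehicle sgOgfod1, 2052 ± 319 in treated sgScramble and 1987 ± 156 in treated sgOgfod1 (SD, n = 3, 3, 4 and 2). With these counts summed, the log2 difference was 1.17 ± 0.14 for the genotype under vehicle (edgeR adjusted p = 0.0010) and 0.84 ± 0.13 for treatment in sgScramble (edgeR adjusted p = 0.00080). Of 90 Hmgb1 pseudogenes tested, 22 were called higher for the genotype under vehicle and 28 for treatment in sgScramble, with none lower. Of all genes, 0.908% and 8.12% were called higher in these comparisons. The pseudogenes share sequence with Hmgb1, so they are not separate observations. Gm21596, which shares 598 of 619 windows with Hmgb1, was higher by 1.25 ± 0.15 for the genotype under vehicle and by 0.85 ± 0.14 for treatment in sgScramble. The share of counts on pseudogenes itself varied only from 91.2% to 92.0% over the 12 libraries. The summed counts were therefore close to a fixed multiple of the Hmgb1 counts and may hold the same reads more than once. The fit on summed counts is not separate support for the Hmgb1 calls.

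The RNA of Hmgb1 was not called in any comparison. In vehicle sgScramble mice it was 342, 351, 299, 327 and 337 CPM, and in vehicle sgOgfod1 mice 383, 382, 377, 432 and 343 CPM. Treated sgScramble mice ranged from 320 to 419 CPM with a median of 366, and treated sgOgfod1 mice from 280 to 500.3 CPM with a median of 416. Ranges of all groups overlapped. The log2 difference was 0.21 ± 0.12 for the genotype under vehicle and 0.14 ± 0.11 for treatment in sgScramble.

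A test of footprints relative to RNA in the same mouse, with the mouse as a block, called Hmgb1 higher in both comparisons. Its ratio of footprint to RNA CPM was 0.240, 0.359 and 0.279 in vehicle sgScramble mice and 0.638, 0.537 and 0.535 in vehicle sgOgfod1 mice. In treated sgScramble mice it was 0.431, 0.625, 0.494 and 0.376, and in treated sgOgfod1 mice 0.376 and 0.375. The change in the log2 ratio was 0.95 ± 0.17 for the genotype under vehicle (edgeR adjusted p = 0.034) and 0.76 ± 0.16 for treatment in sgScramble (edgeR adjusted p = 0.026). Over 28606 genes tested, 0.0385% and 0.419% were called higher (0.0594% and 0.93% in either direction). No other member was called in this test, and the model without the mouse as a block gave 0.95 and 0.76 with edgeR adjusted p of 0.086 and 0.060.

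The call for the Hmgb1 ratio under vehicle was lost in 5 of 6 fits that each left out 1 mouse, all but vehicle sgScramble 3 (log2 0.83 to 1.03, edgeR adjusted p from 0.057 to 0.20). The call with treatment was lost without vehicle sgScramble 2 or 5 or treated sgScramble 2 or 3 (log2 0.63 to 0.75, edgeR adjusted p from 0.059 to 0.17).

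**Figure D4:**
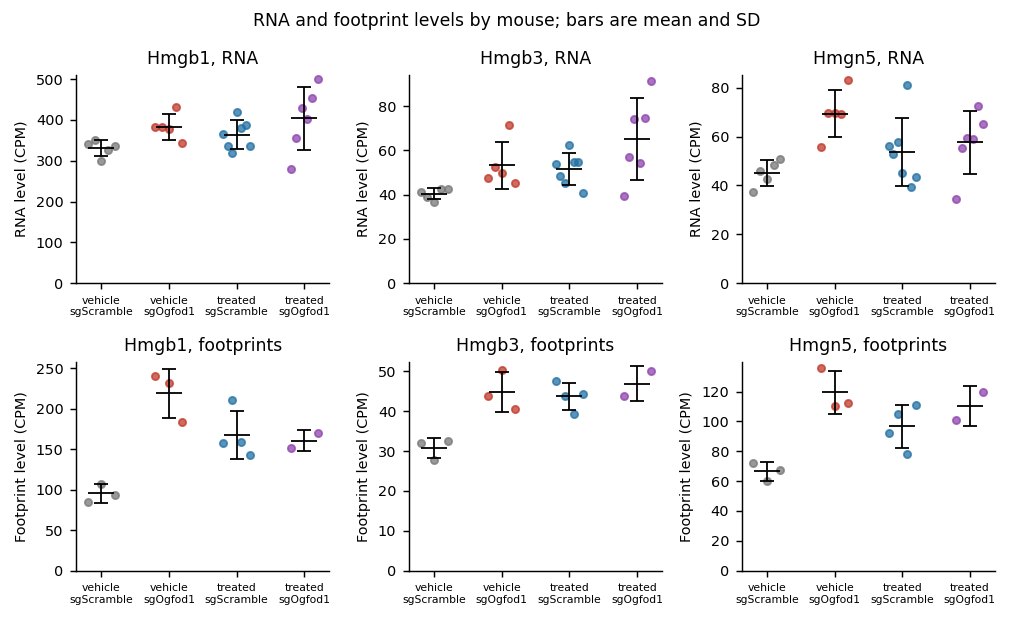
Points are mice, with RNA (top) and footprint (bottom) CPM of Hmgb1, Hmgb3 and Hmgn5 by group, and bars give mean and SD. In footprints the 3 vehicle sgScramble mice lie below all 9 others for each gene, while RNA values of the groups overlap in most comparisons. The genes shown are those called higher against these same 3 mice, so their separation follows in part from the selection.

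Hmgb3, an X-linked Hmgb gene (chrX:71555918-71560676, plus strand) known for its expression in blood progenitors, had the same pattern at a lower level. Its footprint level was 32.04, 27.9 and 32.5 CPM in vehicle sgScramble mice and 43.7, 50.3 and 40.5 CPM in vehicle sgOgfod1 mice. Treated sgScramble mice had 47.6, 43.9, 39.3 and 44.4 CPM, and treated sgOgfod1 mice 43.9 and 50.0 CPM. Again the 3 vehicle sgScramble values were below all others. The log2 difference was 0.53 ± 0.12 for the genotype under vehicle (edgeR adjusted p = 0.030) and 0.51 ± 0.11 for treatment in sgScramble (edgeR adjusted p = 0.0068).

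The first of these Hmgb3 calls was lost in 5 of 6 fits that left out 1 library, all but vehicle sgOgfod1 5 (0.45 to 0.57, edgeR adjusted p from 0.078 to 0.15), and with the replicate block (0.53 ± 0.14, edgeR adjusted p = 0.11). The second held in all 7. Hmgb3 had no unique window, and its pseudogenes Gm6104 and Gm11805 were called higher in both comparisons. In RNA, Hmgb3 was not called, with log2 differences of 0.40 ± 0.17 and 0.35 ± 0.16 (edgeR adjusted p = 1.00 and 0.17). Under vehicle, Hmgb3 RNA was 36.8 to 42.7 CPM in sgScramble and 45.2 to 71.5 CPM in sgOgfod1 mice. These ranges did not overlap, but the share of all genes that separate this way is not given here. The change in Hmgb3 footprints relative to RNA was 0.05 ± 0.15 and 0.19 ± 0.14.

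Hmgn5, an X-linked nucleosome-binding protein with a long acidic end (chrX:109004534-109013404, minus strand), rose in the same pair of comparisons. Its footprint level was 72.2, 59.7 and 67.3 CPM in vehicle sgScramble mice and 136, 110 and 112 CPM in vehicle sgOgfod1 mice. Treated sgScramble mice had 92.2, 105, 78.3 and 111 CPM, and treated sgOgfod1 mice 101 and 120 CPM. No vehicle sgScramble value reached those of the other groups. The log2 difference was 0.85 ± 0.14 for the genotype under vehicle (edgeR adjusted p = 0.0049) and 0.54 ± 0.13 for treatment in sgScramble (edgeR adjusted p = 0.0099). Without vehicle sgScramble 3 the second value was 0.46 (edgeR adjusted p = 0.069).

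Hmgn5 was the called gene with the most unique coding sequence, and its RNA lay on the same side under vehicle. RNA was 37.2, 45.8, 42.7, 48.4 and 51.0 CPM in vehicle sgScramble mice and 55.7, 69.7, 69.5, 69.1 and 82.9 CPM in vehicle sgOgfod1 mice, with no overlap. The RNA difference of 0.62 ± 0.18 was not called over all genes (edgeR adjusted p = 0.37). Relative to RNA its footprints differed by 0.15 ± 0.16 under vehicle and by 0.18 ± 0.15 with treatment in sgScramble.

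Hmgb2, the most abundant member, differed little between groups. It lies on chromosome 8 (chr8:57511907-57515999, plus strand) and encodes the Hmgb protein linked to dividing cells and the SET complex. Its footprint level was 832, 801 and 783 CPM in vehicle sgScramble mice and 956, 854 and 822 CPM in vehicle sgOgfod1 mice. Treated sgScramble mice had 762, 866, 760.5 and 794 CPM, and treated sgOgfod1 mice 853 and 909 CPM. All groups overlapped except treated sgOgfod1 against vehicle sgScramble, which no test compared. The log2 differences in footprints lay between -0.02 and 0.15 over the 4 comparisons with SE from 0.09 to 0.11, and those in RNA between -0.09 and 0.21.

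Hmgn2 (chr4:133964738-133968650, minus strand), which binds nucleosomes, was the sole member called in RNA. RNA was 434, 459.9, 504, 425 and 336 CPM in vehicle sgOgfod1 mice, against 469 to 743 CPM with a median of 613 in treated sgOgfod1 mice. The log2 difference was 0.49 ± 0.14 (n = 6 and 5, edgeR adjusted p = 0.026), while 5.69% of 21474 genes were called higher in that comparison (9.87% in either direction). In sgScramble mice treatment gave 0.39 ± 0.13 (n = 7 and 5, edgeR adjusted p = 0.055), and DESeq2 called that difference at 0.38 (adjusted p = 0.024). Hmgn2 RNA was 384 to 433 CPM in vehicle and 443 to 763 CPM in treated sgScramble mice, with no overlap. The share of all genes that separate this way is not given here. The Hmgn2 call in sgOgfod1 mice was lost without vehicle sgOgfod1 1, 4 or 5 (0.41 to 0.49, edgeR adjusted p from 0.057 to 0.087). It was also lost with the replicate block (0.44 ± 0.14, edgeR adjusted p = 0.072). Hmgn2 footprints changed by -0.01 ± 0.16 and 0.06 ± 0.14 with treatment in sgOgfod1 and sgScramble mice.

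Hmgn1 and Hmga1 were not called in any comparison or assay. Hmgn1 (chr16:96120618-96127729, minus strand), a nucleosome-binding gene of low footprint depth, had 27 to 121 footprint counts per library. Its footprint log2 differences ran from -0.58 ± 0.29 for treatment in sgOgfod1 mice to 0.01 ± 0.25 for the genotype under vehicle, and their SE of 0.24 to 0.29 was the widest of the 7 genes. Hmga1 (chr17:27556497-27563674, plus strand) had 57.2 to 82.4 footprint CPM over all 12 libraries and log2 differences from -0.22 to 0.22 over the 4 comparisons.

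**Figure D5:**
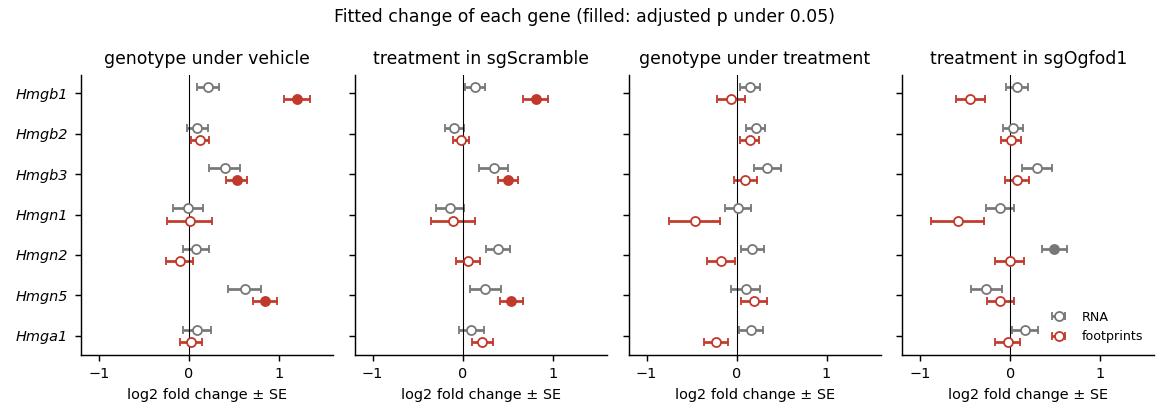
Points give the fitted log2 fold change ± SE of each gene for RNA (grey) and footprints (red) in 4 comparisons, filled where the adjusted p was under 0.05. In the first and second panels Hmgb1 footprints stand at 1.20 and 0.81 while its RNA stands at 0.21 and 0.14; no footprint point is filled in the other two.

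No member was called in RNA for the genotype under vehicle (0.116% of all genes called), under treatment (0.391%), for treatment in sgScramble (12.9%) or for the interaction (0.00% of all genes). edgeR gave 2, 2, 2 and 1 of 7 members at an unadjusted p under 0.05 in these comparisons, and DESeq2 called 0, 0, 1 and 0. Of all 21474 genes, 993, 2768, 5761 and 975 were at an unadjusted edgeR p under 0.05. In footprints none of the 7 was called for the genotype under treatment (1.58%) or for treatment in sgOgfod1 (8.22%). There 0 and 1 members were at an unadjusted edgeR p under 0.05, as were 2881 and 4238 of 18290 genes, and DESeq2 called 0 in both. In footprints relative to RNA none was called for these comparisons either (0.0489% and 0.0839%). Members at an unadjusted edgeR p under 0.05 were 0 and 1, against 1932 and 1521 of 28606 genes, with 0 called by DESeq2.

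The genes whose RNA was most like that of the 3 leading members over all 23 libraries were named from 8618 other protein-coding genes by Pearson r of log2 CPM. For Hmgb2 they were Fignl1 (0.90), Slc43a3 (0.88) and Tyms (0.85). For Hmgn2 they were Tmed2 (0.89), Surf4 (0.88) and Mpzl1 (0.88). For Hmgb1 they were Rfc4 (0.94), Wdr12 (0.93) and Jpt2 (0.93). Libraries of all groups enter these values, so shared group differences and library quality are part of them.

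Other genes of the same biology were counted from lists drawn up with earlier results known. Genes of histone chaperones, which handle histones outside the nucleosome, and genes of the SET complex made up a list of 19. Of these 19, 5 were called higher and 0 lower in footprints for the genotype under vehicle, where 0.908% of all genes were called higher. Their median log2 difference was 0.29, against -0.01 over all genes. Among them were Set (0.55 ± 0.11), Ncl (0.57 ± 0.11), Anp32b (0.69 ± 0.14) and Chaf1a (0.48 ± 0.12). For treatment in sgScramble 4 of 19 were called higher and 1 lower (15.6% of all genes in either direction), with Ncl at 0.67 ± 0.11, Npm1 at 0.56 ± 0.12, Nasp at 0.38 ± 0.10 and Asf1b at -0.48 ± 0.11. For treatment in sgOgfod1 mice 0 were called higher and 2 lower, Trex1 at -1.30 ± 0.32 and Daxx at -0.48 ± 0.14 (8.22% of all genes in either direction). In RNA their median was 0.12 for the genotype under vehicle, against -0.01 over all genes. Pseudogenes of these genes were not examined.

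Linker histones, the partners that Hmgn proteins compete with, were called in some comparisons. Of 8 tested in footprints, 1 was called for the genotype under vehicle, H1f0, which was lower (-0.94 ± 0.21). There 1.81% of all genes were called in either direction. For treatment in sgScramble 1 of 8 was called, Hist1h1b, also lower (-0.40 ± 0.11), where 15.6% of all genes were called. In RNA 2 of 7 tested were called higher for treatment in sgOgfod1 mice, H1f0 (0.90 ± 0.22) and Hist1h1c (1.14 ± 0.35). In that comparison 5.69% of all genes were called higher.

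Other genes with an HMG box, or partners of such genes, were called lower or not at all in either single assay. These counts were near the share of all genes called. For treatment in sgScramble 2 of 17 were lower in RNA, where 12.9% of all genes were called in either direction, namely Hmgxb4 (-0.61 ± 0.15) and Supt16 (-0.46 ± 0.14), the latter a subunit of the FACT histone chaperone. In footprints 2 of 15 were lower, where 15.6% of all genes were called, namely Cic (-0.46 ± 0.14) and Hmg20b (-0.58 ± 0.19).

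Of receptors and partners of released Hmgb1, some were called in each direction with treatment. In RNA 4 of 11 were called higher and 2 lower in each genotype, and the other 5 were not called. Of all genes 12.9% were called in sgScramble and 9.87% in sgOgfod1 mice in either direction. In footprints 2 of 10 were called higher and 3 lower in sgScramble mice (15.6% of all genes), and 2 higher and 4 lower in sgOgfod1 mice (8.22%). The median log2 difference of the list was 0.19 and 0.60 in RNA and -0.08 and -0.23 in footprints. In RNA Trem1, an amplifier of myeloid inflammation, was higher by 1.80 ± 0.28 in sgScramble and 2.38 ± 0.30 in sgOgfod1 mice, and Cd14, a coreceptor, by 1.57 ± 0.35 and 1.78 ± 0.36. Thbd was lower by -2.38 ± 0.43 and -2.12 ± 0.45, and Siglecg by -1.51 ± 0.31 and -2.13 ± 0.33. In footprints under vehicle, sgOgfod1 was lower for Cd14 (-1.07 ± 0.20) and Trem1 (-1.15 ± 0.25).

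The targeted gene and cell markers gave the setting for these values. Ogfod1 footprints were 13.7 to 15.5 CPM in vehicle sgScramble and 1.67 to 2.98 CPM in vehicle sgOgfod1 mice, and under treatment 12.4 to 17.5 against 1.44 to 2.91 CPM. Its RNA ranged from 12.3 to 31.6 CPM in sgScramble and from 3.75 to 13.0 CPM in sgOgfod1 libraries. The summed RNA of 9 leukemia markers was 3062 to 7650 CPM, with none at 0. Summed markers of T and NK cells and of B cells were lower but present. The summed RNA of the neutrophil markers, given below, was above that of the leukemia markers in every group. The 6 T and NK cell markers summed to 24.2 to 143 RNA CPM, and Cd3e among them reached at most 0.97 CPM. The 5 B cell markers summed to 15.4 to 44.8 CPM. For treatment in sgScramble 2 of 5 T and NK markers tested were called higher in RNA and 0 lower. Of 4 B cell markers tested, 1 was called higher and 0 lower, where 12.9% of all genes were called. Single leukemia markers went both ways. In footprints 3 of 9 were called higher and 2 lower for treatment in sgScramble, where 15.6% of all genes were called. Kit RNA was 204 to 278 CPM in vehicle and 3.26 to 132 CPM in treated sgScramble mice. The summed RNA of 8 neutrophil markers moved with treatment, from 5930 to 16046 CPM in vehicle libraries to 12975 to 77613 CPM in treated ones. In sgScramble 6 of 8 were called higher, where 12.9% of all genes were called. Mitosis genes were lower in RNA in 8 of 15 for treatment in sgScramble, and 9 of 10 tissue macrophage markers were higher, where 12.9% of all genes were called. For the genotype under treatment 8 of 15 mitosis genes were called higher in footprints, where 1.58% of all genes were called. In footprints the 8 neutrophil markers summed to 4454 to 4980 CPM in vehicle sgScramble, 2871 to 4614 in vehicle sgOgfod1 and 7000 to 16099 in treated sgScramble mice. The 15 mitosis genes summed to 1765 to 2002, 1954 to 2482 and 1495 to 1791 footprint CPM in the same groups. The summed RNA of 7 erythroid markers under vehicle was 1.18 to 3.36 CPM in sgScramble and 9.88 to 23.3 CPM in sgOgfod1 mice. None was called in RNA for that genotype comparison, and the smallest edgeR adjusted p of the 7 was 0.11, for Hbb-bs. With treatment, 5 of 7 were called lower in RNA in sgOgfod1 and 1 in sgScramble mice (9.87% and 12.9% of all genes called). In footprints relative to RNA, 2 of 7 were called lower for the genotype under vehicle (0.0594% of all genes called). The part of these markers in the results was not tested, and fewer cells of a type cannot be told apart from less RNA per cell in bulk samples. The RNA libraries treated sgScramble 4 and treated sgOgfod1 3 stood apart from the rest on the first principal component and had no footprint library. Without both, Hmgb1 RNA differed by 0.10 ± 0.11 with treatment in sgScramble, and Hmgn2 was called there (0.37 ± 0.13, edgeR adjusted p = 0.045).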

How the data were processed

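Sorted GFP+ leukemia cells were lysed in 20 µl, 2 µl went to Smart-seq2 for RNA and the rest to footprints, per the labels' protocols. The deposited values are whole-number counts per Ensembl gene. Per the submitters' processing notes, the authors used cutadapt, Bowtie2, STAR, SAMtools and featureCounts with GRCm38 (mm10); versions, annotation release, strand setting and the handling of reads with several matches are not given in the sources used here. All columns of the count tables were matched to a sample. Of 55487 genes, 55227 had a name in GENCODE M21.

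Counts were tested with edgeR 4.0.16 in R 4.3.3 (filterByExpr, TMM, robust quasi-likelihood test), 1 model of all groups per assay, and adjusted over 21474 RNA and 18290 footprint genes. Footprints relative to RNA were tested as an assay-by-group term with the mouse as a block over 28606 genes, on the 12 mice with both; the same group and replicate number in the labels marks a mouse, and in 10 of 10 mice of groups with 3 or more, the footprint deviations matched their own RNA best (r from 0.25 to 0.72). The models were tested on simulated data, with changes planted only for treatment in sgScramble, a fixed spread in each assay and no mouse effect. In RNA that spread was below the one estimated from the data. The genotype and interaction tests were not covered by it. Each library is 1 mouse; no pair within a group agreed within sampling noise. Windows and pseudogenes came from GENCODE M21 transcripts and blastn 2.17.0; no genome sequence was used.

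The members and gene lists were chosen with earlier results of these data known. All 8 members were named in each comparison, as were up to 4 genes of each other list by smallest p, up to 3 pseudogenes per member by footprint level and, for the 3 members with most RNA per length, the 3 most similar genes with at least 10 CPM; other names were chosen after their values were seen. Alternatives were DESeq2 1.42.0, no filter, protein-coding genes only, each library left out, the replicate number as a block, a term for library numbers from 17 up, and counts with pseudogenes added.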

Additional observations from a re-analysis of the deposited data

Results flagged for a closer look

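Among 35 groups of 4 to 7 libraries, 2 held a library whose gap to the others passed Dixon's limit, and chance flags about 1 in 20. Hmgb3 RNA was 71.5 CPM in vehicle sgOgfod1 4, where the other 4 mice had 45.2 to 52.7 CPM. Hmgn1 RNA was 59.9 CPM in treated sgScramble 4, where the next highest of 7 mice had 44.7 CPM; this is one of the libraries that stood apart over all genes. The treatment effect on Hmgb1 footprints differed between sgOgfod1 and sgScramble mice by -1.26 (log2), by edgeR's interaction term.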

How the results depend on the processing

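Limits: footprint groups held 2 to 4 mice, the vehicle sgScramble mice are the reference of both comparisons with 3 called members, and no window of 30 bases separates Hmgb3, Hmgn2 or Hmga1 from other annotated genes. No called log2 difference changed sign under the alternatives run; the cause of the changes below was not tested.

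With the replicate number as a block, the members called fell from 3 to 2 in footprints for the genotype under vehicle, from 1 to 0 for the footprint interaction and from 1 to 0 in RNA for treatment in sgOgfod1; no other count of called members changed. Same-numbered mice of different groups did not deviate together (median r of -0.02 in RNA and -0.00 in footprints), so the numbers do not pair the mice. Without the mouse as a block, 0 in place of 1 was called in footprints relative to RNA for both the genotype under vehicle and treatment in sgScramble. All vehicle libraries had numbers below 17, and in footprints only treated sgScramble had libraries on both sides of that split. A term for library numbers from 17 up therefore cannot address library order in the genotype comparison under vehicle. With that term, 0 was called for the footprint interaction (Hmgb1 -1.11 ± 0.22, edgeR adjusted p = 0.17) and 0 in RNA for treatment in sgOgfod1. The RNA fit on the footprint mice alone, chosen after seeing the data, also gave 0 there. DESeq2, and the fit without 2 RNA libraries that stood apart (chosen after seeing the data), called 1 member in RNA for treatment in sgScramble. Without a filter, 1 member (Hmgb1, -0.43, edgeR adjusted p = 0.047) was called in footprints for treatment in sgOgfod1. With pseudogenes added, or pseudogenes and other copies (chosen after seeing the data), 0 was called for the interaction.

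Leaving out 1 library gave 2 to 3 members called in footprints for the genotype under vehicle and for treatment in sgScramble, and 0 to 1 for the footprint interaction, for RNA with treatment in sgOgfod1 and in sgScramble, and for footprints relative to RNA in the genotype under vehicle and treatment in sgScramble. All other comparisons stayed at 0.

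Differences of Hmgb1 that were not called changed sign in places. Hmgb1 RNA for treatment in sgOgfod1 was -0.041 with the library number term, and for treatment in sgScramble -0.0135. Hmgb1 footprints for the genotype under treatment were 0.0944 with the library number term and 0.0392 with the replicate block, and ranged from -0.148 to 0.0589 when 1 library was left out. The Hmgb1 RNA interaction was 0.0677 in the footprint mice alone and ranged from -0.116 to 0.0458 when 1 library was left out.

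At 95% identity the pseudogene share of footprint counts was 89.9% for Hmgb1, 78.4% for Hmgb2, 45.8% for Hmgb3, 63.9% for Hmgn1, 85.1% for Hmgn2 and 12.8% for Hmgn5, and with other copies it was 90.2% for Hmgn2. The footprint level per length of Hmgb2 was 5.81 ± 1.96 times that of Hmgb1 (SD, n = 12), or 9.49 times by exon length. DESeq2 called over 1.5 times as many genes as edgeR in the following comparisons. For the interaction it called 52 against 12 genes in footprints and 18 against 0 in RNA, where edgeR had 975 at an unadjusted p under 0.05. For the genotype it called 115 against 25 under vehicle and 575 against 84 under treatment in RNA, and 610 against 331 and 582 against 289 in footprints. For treatment in sgOgfod1 it called 3287 against 2120 in RNA. In footprints relative to RNA it called 1077 against 266 and 75 against 24 for treatment in sgScramble and sgOgfod1, and 174 against 17 and 162 against 14 for the genotype under vehicle and under treatment.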

Other observations

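Hmga2, an AT-hook gene that is not among the members and was chosen after its values were seen, had 14.2 to 18.9 mean RNA CPM in the 4 groups but at most 0.48 footprint CPM in any of the 12 libraries. Hmgb4 had no RNA count in any of the 23 libraries. Over the 12 footprint libraries, the genes most like Hmgb1 among 5830 others, a comparison also chosen after its values were seen, were Rdx (r = 0.92), Cwc27 (0.90) and Anp32e (0.89).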
